A study of Homo sapiens with 3 samples.

Results

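Genes for 10 proteins that mark liver cells or liver tumours were described in RNA-seq libraries labelled HepG2. They were chosen by name as ALB, AFP, GPC3, TTR, RBP4, VTN, TF, AHSG, HP and SPINK1. Each had 1 row in the deposited tables, so the set is 10 of 39320 gene rows on whole-chromosome references, which leave out unplaced and alternate sequences. HepG2 is an established human liver cancer cell line, known for making albumin, alpha-fetoprotein and many other plasma proteins. The study sequenced polyA RNA, extracted with TRIzol, from wild-type (WT) cells in 3 libraries, replicates 1 to 3, with 1 condition and no control group. The labels do not say whether the replicates were separate cultures, so each spread given here may be technical.

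Most plasma proteins are made by hepatocytes, enter the endoplasmic reticulum through a signal peptide and are released into the blood. ALB and AFP encode albumin and alpha-fetoprotein, which share a gene family. AFP is high in fetal liver, is shut down after birth and often returns in liver tumours, where it serves as a blood marker. GPC3 encodes glypican-3, a heparan sulfate proteoglycan held on the cell surface and another tumour marker. TTR and RBP4 form the complex that carries retinol in the blood, TF carries iron, HP binds free haemoglobin, AHSG (fetuin-A) limits mineral deposits, VTN (vitronectin) is an adhesion protein and SPINK1 inhibits trypsin.

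The libraries went against their label in most of these genes. No reference level of HepG2 was used, so whether the remaining genes go with the label was not tested. Whether the libraries come from the labelled line was not tested either. VTN, RBP4 and SPINK1 reached 1 TPM (a transcript level scaled for length and to a fixed total in each library) in all 3 libraries, or 3 of 10. Among protein-coding gene rows the share was 59.5% (11503 of 19323), and among all gene rows it was 33.8%. The other 7 genes stayed below this limit in every library, with ALB, GPC3 and AHSG listed at 0 throughout. The share listed at 0 throughout was 19.8% of protein-coding rows and 40.7% of all rows. Summed over the 10 genes the level was 44.0, 40.1 and 40.1 TPM in replicates 1, 2 and 3, and the 3 highest genes held between 99.4% and 99.7% of it. In bulk RNA, fewer cells with a transcript and less of it per cell cannot be told apart.

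The sequences before the transcription starts are shown for the 3 genes with signal and for the neighbouring low pair ALB and AFP. They come from RefSeq (GRCh38.p14), which held an entry for 7 of the 10 genes. TTR, GPC3 and HP had none. Each run is the 250 bases before the start of the main annotated transcript, 5′ to 3′ on the gene's strand, at chr17:28370308-28370557 (minus) for VTN, chr10:93601236-93601485 (minus) for RBP4, chr5:147831672-147831921 (minus) for SPINK1, chr4:73404037-73404286 (plus) for ALB and chr4:73435971-73436220 (plus) for AFP. Capitals mark TATAAA, the TATA box letters, searched on both strands.
VTN: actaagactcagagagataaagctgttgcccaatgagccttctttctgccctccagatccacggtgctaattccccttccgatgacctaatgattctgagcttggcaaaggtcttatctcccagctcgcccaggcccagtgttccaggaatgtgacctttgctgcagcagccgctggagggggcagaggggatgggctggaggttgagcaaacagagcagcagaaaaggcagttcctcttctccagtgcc
RBP4: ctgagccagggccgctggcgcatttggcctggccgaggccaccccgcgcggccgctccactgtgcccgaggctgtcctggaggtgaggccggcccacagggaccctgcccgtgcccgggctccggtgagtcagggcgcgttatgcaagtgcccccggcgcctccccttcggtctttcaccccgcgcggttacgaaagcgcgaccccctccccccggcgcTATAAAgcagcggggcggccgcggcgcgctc
SPINK1: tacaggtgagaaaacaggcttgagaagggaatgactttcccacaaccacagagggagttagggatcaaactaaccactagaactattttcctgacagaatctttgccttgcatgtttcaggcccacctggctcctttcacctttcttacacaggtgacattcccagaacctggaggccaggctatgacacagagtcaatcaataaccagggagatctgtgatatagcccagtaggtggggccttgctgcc
ALB: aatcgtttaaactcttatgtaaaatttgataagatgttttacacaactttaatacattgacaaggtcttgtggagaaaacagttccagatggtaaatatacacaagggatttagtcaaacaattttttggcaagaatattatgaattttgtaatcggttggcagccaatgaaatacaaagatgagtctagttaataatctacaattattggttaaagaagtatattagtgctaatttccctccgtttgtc
AFP: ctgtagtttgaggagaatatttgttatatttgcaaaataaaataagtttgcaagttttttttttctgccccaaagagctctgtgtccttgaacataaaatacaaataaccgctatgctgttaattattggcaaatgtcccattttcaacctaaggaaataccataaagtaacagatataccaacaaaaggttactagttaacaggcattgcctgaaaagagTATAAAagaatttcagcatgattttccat

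TATAAA was found once in the RBP4 window shown, 31 bases before the start, and once in AFP, 29 bases before it. It was not found in these letters in the windows of VTN, SPINK1 and ALB, and 10.7% of 35116 promoters of the same length hold it. In the windows shown, the genes with signal did not share a base composition. The RBP4 window shown had 31 CpG dinucleotides and 74.8% G and C, while that of SPINK1 had 0 CpG and 48.8%, and that of VTN had 4 CpG and 54.8%. ALB and AFP had 3 and 1 CpG, with 30.0% and 31.6% G and C. The low genes did not share a base composition either. In windows not shown, TF had 17 CpG and 60.8% G and C at its main start, and AHSG had 2 CpG and 46.8%. Neither of these windows held TATAAA. The deposited row of TF begins at 133661986, close to a further RefSeq start at 133661998, which lies 84395 bases upstream of the main start. The window of that start had 0 TATAAA, 34 CpG and 72.4% G and C. The median over all promoters was 11 CpG and 58.0%. RBP4 has 2 further starts in RefSeq, and its values depend on the start taken. The deposited row of RBP4 begins at the farthest of them, 509 bases upstream of the start used above, where the window had 0 TATAAA, 7 CpG and 41.6% G and C. The window of the other start, 278 bases upstream, had 2 TATAAA, 12 CpG and 56.8% G and C. These 2 overlap in a single stretch, read once on each strand, and the nearer lies 225 bases before that start. The deposited row of SPINK1 also begins upstream of the start used above, at 147839231 against 147831671. No window at that end was examined, so the SPINK1 window shown need not be the one behind its level. These are descriptions of letters, and no binding or promoter activity was measured.

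**Figure D1:**
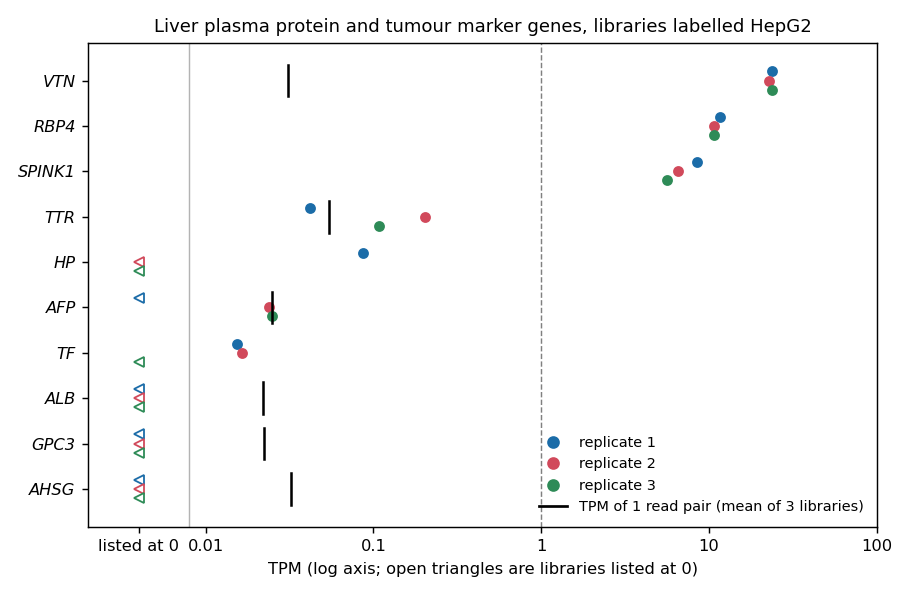
TPM of the 10 genes in each library on a log axis, ordered by mean, with open triangles for libraries listed at 0. A dashed line marks 1 TPM, and black ticks, drawn for 6 genes, mark the TPM of 1 read pair of 300 bases. VTN, RBP4 and SPINK1 lie between 5.61 and 23.7 TPM, and every value of the other 7 genes is at or below 0.203 TPM.

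VTN, the adhesion protein gene, had the highest level of the set. Its row lies on the minus strand of chromosome 17 (28367284 to 28370307) (GRCh38), and the annotated transcript with these ends has 8 exons and 1626 nt. VTN had 23.7, 22.7 and 23.6 TPM in replicates 1, 2 and 3, a mean of 23.3 ± 0.560 TPM (SD, n = 3). The 3 libraries lay close together. By mean TPM it exceeded 60.7% of the 13753 gene rows whose mean reached 1 TPM, and 55.2% of the protein-coding ones. In FPKM, which is scaled for length and depth but not to a fixed total, VTN had 11.2, 10.8 and 11.3. Its coverage, the mean depth per base and not scaled for depth, was 149, 139 and 130.

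RBP4, the retinol carrier of plasma, came second. Its row spans 10051 bp of the minus strand of chromosome 10 (93591694 to 93601744), and the main annotated transcript has 6 exons. RBP4 had 11.6, 10.6 and 10.8 TPM, a mean of 11.0 ± 0.508 TPM (SD, n = 3), above 41.2% of those gene rows. Its FPKM was 5.47, 5.09 and 5.16, and its coverage was 58.5, 53.0 and 48.3.

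SPINK1, the trypsin inhibitor, was the lowest of the 3 and the most variable. Its row lies on the minus strand of chromosome 5 (147824580 to 147839231). SPINK1 had 8.53, 6.57 and 5.61 TPM, a mean of 6.90 ± 1.48 TPM (SD, n = 3), above 30.9% of them. Replicate 1 was the highest and replicate 3 the lowest. The row begins upstream of the main annotated transcript, which starts at 147831671 and has 4 exons and 413 nt, so the value covers more than that transcript.

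The order VTN, RBP4, SPINK1 held in each library, and the ranges of neighbours did not overlap. VTN was between 2.05 and 2.19 times RBP4 within a library, with a log2 ratio of 1.02 ± 0.04 on the log2(TPM + 1) scale (SD, n = 3). RBP4 was between 1.36 and 1.92 times SPINK1, with a log2 ratio of 0.62 ± 0.21 (SD, n = 3). VTN over SPINK1 gave 1.64 ± 0.26 (SD, n = 3). The pairs and their direction were taken from the order of the means in these same libraries. The log2 ratio of VTN to SPINK1 is the sum of the others. Each of these 3 ratios was above 0 in 3 of 3 libraries. An exact permutation test (two-sided, by sign flips) gave p = 0.25 for each, also after Benjamini-Hochberg adjustment over the 3, which is the smallest value that n = 3 allows, so 0.05 could not be reached. SPINK1 and TTR, the next gene, also did not overlap, and the mean of SPINK1 was 58.7 times that of TTR. From TTR downwards the ranges of neighbours in the order overlapped. TTR overlapped HP only and lay above AFP, TF, ALB, GPC3 and AHSG in every library, while the ranges of these 5 and of HP all included 0.

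The tables give no counts, but coverage times length is the number of sequenced bases where the length is known. Among single-exon rows whose ends equal those of their only annotated transcript, 75.9%, 74.5% and 73.9% of the values above 0 in replicates 1, 2 and 3 came out whole, with a tolerance of 0.003 bases plus a rounding allowance. A read pair holds at most 300 bases (2 reads of 150), so bases divided by 300 give the least number of read pairs. For VTN, 241755, 226371 and 210615 bases came from at least 806, 755 and 703 read pairs. The lengths of RBP4 and SPINK1 were not taken from the annotation but found as the smallest that gave whole bases. RBP4 did so at 2602 nt, with at least 508, 460 and 419 read pairs, and SPINK1 at 1286 nt, with at least 222, 169 and 128 read pairs. The same scale, taken from the highest ratio of coverage to FPKM, puts the libraries at about 44300000, 42800000 and 38200000 read pairs of 300 bases.

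These numbers give the counting error behind each spread. The coefficient of variation of TPM over the 3 libraries was 2.40% for VTN and 4.63% for RBP4. Counting alone gives at most 3.77% for VTN and 4.89% for RBP4 in any library, so both spreads lay below these upper bounds. For SPINK1 the coefficient of variation was 21.5%, above the bound of 8.84%. A spread over 3 libraries is itself imprecise, and these values are descriptions. Among 4639 protein-coding genes with a mean of 5 to 25 TPM the median was 6.24%, and SPINK1 varied more than 98.7% of them. RBP4 varied more than 32.2% of them and VTN more than 9.79%. The range of means, from 5 to 25 TPM, was chosen after the values had been seen.

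**Figure D2:**
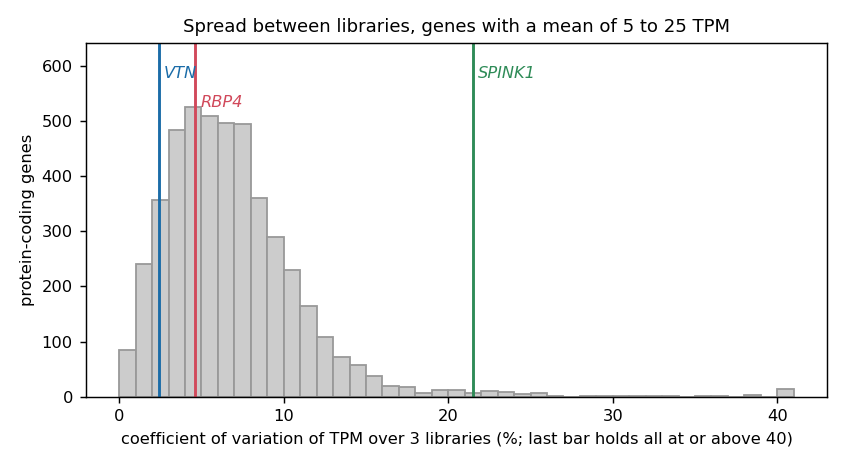
Number of protein-coding genes (vertical axis) by coefficient of variation of TPM over the 3 libraries (horizontal axis, %), for 4639 genes with a mean of 5 to 25 TPM, with lines at the 3 genes that have signal. VTN at 2.40% and RBP4 at 4.63% lie below the median of 6.24%, and SPINK1 at 21.5% lies in the upper tail.

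TTR, the carrier of thyroid hormone and partner of RBP4, was above 0 in every library but low. It had 0.0417, 0.203 and 0.108 TPM in replicates 1, 2 and 3, a mean of 0.118 ± 0.0812 TPM (SD, n = 3). Whole bases were reached at a length of 929 nt, with 243, 1159 and 551 bases, or at least 1, 4 and 2 read pairs. Its row lies on the plus strand of chromosome 18 (31591767 to 31599024). RBP4, at its recovered length of 2602 nt, thus had at least 419 read pairs in each library. For its partner TTR the corresponding least numbers were 1, 4 and 2.

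ALB and AFP lie side by side on the plus strand of chromosome 4, with 14736 bp between their rows. ALB (73404287 to 73421482) was listed at 0 in all 3 libraries. For its annotated transcript of 2285 nt, 1 read pair of the full 300 bases would have given 0.0209, 0.0214 and 0.0239 TPM in replicates 1, 2 and 3. With 3 such read pairs, taken as the limit that a count of 0 allows, the values would be 0.0628, 0.0642 and 0.0717 TPM. Pairs with fewer bases would give less, here and for GPC3 and AHSG below. AFP (73436219 to 73455785) had 0, 0.0239 and 0.0248 TPM. At the length of 2039 nt that gave whole bases, these are 299 bases in replicate 2 and 278 bases in replicate 3, which would fit in 1 read pair each. This length rests on 2 values only and is less certain than the others. The other genes of this family, AFM and GC, which carry vitamin E and vitamin D, were also listed at 0 throughout. Thus 3 of the 4 family genes were at 0, beside 19.8% of protein-coding rows. Of the 4, 0 reached 1 TPM, beside 59.5% of protein-coding rows. The read pair limits above cover counting error only and assume that the quantification passed such reads on.

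GPC3, on the minus strand of chromosome X (133535745 to 133985646), was listed at 0 in every library. With the main annotated transcript of 2267 nt, 3 read pairs would have given between 0.0633 and 0.0722 TPM. GPC3-AS1, a noncoding gene within the row of GPC3 on the other strand, was at 0 as well. Of the 5 other glypicans, GPC1 had 102, 95.1 and 89.3 TPM, GPC5 had 4.41, 4.10 and 4.32 TPM and GPC2 had 1.79, 1.65 and 1.53 TPM. GPC4 lay just below 1 TPM with 0.871, 0.913 and 0.963, and GPC6 was listed at 0. Heparan sulfate is the sugar chain that glypicans carry. Of the 8 listed genes for its synthesis and trimming, 7 reached 1 TPM in every library, beside 59.5% of protein-coding rows. The highest were NDST1 with 41.4, 39.3 and 36.2 TPM, SULF2 with 31.2, 32.4 and 29.8 TPM and EXT2 with 27.3, 25.6 and 25.1 TPM. SULF1 was the other, with 0.286 ± 0.0493 TPM (SD, n = 3).

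AHSG, on the plus strand of chromosome 3 (186612923 to 186621318), was listed at 0 in all 3 libraries, where 3 read pairs over 1574 nt would have given between 0.0912 and 0.104 TPM. Its relatives FETUB, HRG and KNG1, which encode fetuin-B, histidine-rich glycoprotein and kininogen, were at 0 in every library too. The list was thus at 0 in 4 of 4 genes, beside 19.8% of protein-coding rows.

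TF, the iron carrier, was listed at 0.0154, 0.0165 and 0 TPM. The number of reads behind these values was not worked out, because the row (chromosome 3, 133661986 to 133796641) combines transcripts of different ends. The row of TF shares 12609 bp with that of SRPRB, a gene on the same strand that had 87.1 ± 4.74 TPM (SD, n = 3), so reads there could have been assigned to either. The receptor for transferrin, TFRC, had 306, 285 and 270 TPM, and the second receptor, TFR2, had 14.7, 14.4 and 13.8 TPM. Of the other genes of the transferrin family, MELTF had 11.5 ± 1.14 TPM and LTF, which encodes lactoferrin, 0.0956 ± 0.0383 TPM (SD, n = 3).

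HP, which encodes haptoglobin, was listed at 0.0867, 0 and 0 TPM. HPR, its near-identical neighbour 2169 bp away, had 0.0891, 0 and 0 TPM, so both were above 0 in replicate 1 only, and reads of these paralogs cannot be assigned with certainty. The row of HP lies within that of TXNL4B, a gene on the opposite strand with 21.5 ± 1.56 TPM (SD, n = 3), and the strand setting of the quantification is not given in the sources used here. CD163, the receptor that takes up haptoglobin with haemoglobin, was listed at 0, and HPX, the haem carrier, had 0.315 ± 0.0772 TPM (SD, n = 3). LRP1, which takes up haem-bound HPX, had 40.7 ± 2.09 TPM (SD, n = 3).

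VTN, RBP4 and SPINK1 shared no base of their rows with any other row. The nearest rows were SARM1, 1386 bp from VTN, with 9.79 ± 0.582 TPM, FFAR4, 1621 bp from RBP4, with 0.0613 ± 0.0610 TPM, and C5orf46, 11231 bp from SPINK1, with 0.0668 ± 0.0186 TPM (SD, n = 3). The genes flanking RBP4 and SPINK1 were thus below 0.1 TPM on average, while within 20000 bp of VTN levels ran from 0.332 ± 0.0783 TPM for SEBOX to 116 ± 1.66 TPM for POLDIP2 (SD, n = 3).

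SPINK1 is by position the first of 7 SPINK genes within 517 kb of chromosome 5. Of these 7, 5 reached 1 TPM in every library, beside 59.5% of protein-coding rows. SPINK5, which encodes an inhibitor of skin proteases, had 181, 160 and 165 TPM, between 21.2 and 29.4 times the level of SPINK1 in the same library. SPINK13 had 87.1, 85.3 and 75.6 TPM and SPINK6 had 17.2, 14.9 and 16.1 TPM. SPINK9 had 3.06, 6.97 and 6.54 TPM, so that its lowest library, replicate 1, was the one in which SPINK1 was highest. SPINK7 lay around the limit with 1.28, 1.05 and 0.848 TPM, and SPINK14 was listed at 0. Of the 3 SPINK genes on other chromosomes, SPINK4 had 0.692 ± 0.256 TPM (SD, n = 3), SPINK8 was above 0 in replicate 3 only and SPINK2 was at 0.

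RBP4 was set beside the genes that handle retinol and retinoic acid. Among protein-coding rows 59.5% reached 1 TPM throughout. Of 10 listed genes, TTR and RBP4 included, 4 did. These were RDH10 with 25.6, 22.3 and 21.4 TPM and DHRS3 with 19.7, 18.0 and 19.7 TPM, which interconvert retinol and retinal, CRABP2, a carrier of retinoic acid inside the cell, with 12.3, 13.0 and 11.4 TPM, and RBP4 itself. STRA6, the receptor for RBP4, had 0.398, 0.398 and 0.330 TPM. RBP2 lay around 1 TPM with 0.667, 0.887 and 1.41, and RBP3 was below it in every library. LRAT, which makes retinyl esters for storage, and CRABP1 were listed at 0.

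Of 7 listed receptors and partners of vitronectin, 5 reached 1 TPM throughout, beside 59.5% of protein-coding rows. ITGB1 had 261 ± 13.5 TPM, ITGB5 had 88.7 ± 1.65 TPM and ITGAV, the alpha chain that pairs with both, had 24.9 ± 1.87 TPM (SD, n = 3). PLAUR, the urokinase receptor, had 39.2, 40.7 and 37.7 TPM. ITGB8 had 6.01 ± 0.693 TPM (SD, n = 3). ITGB3, the beta chain of the classical vitronectin receptor, had 0.159 ± 0.0870 TPM and ITGB6 0.127 ± 0.0289 TPM (SD, n = 3).

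**Figure D3:**
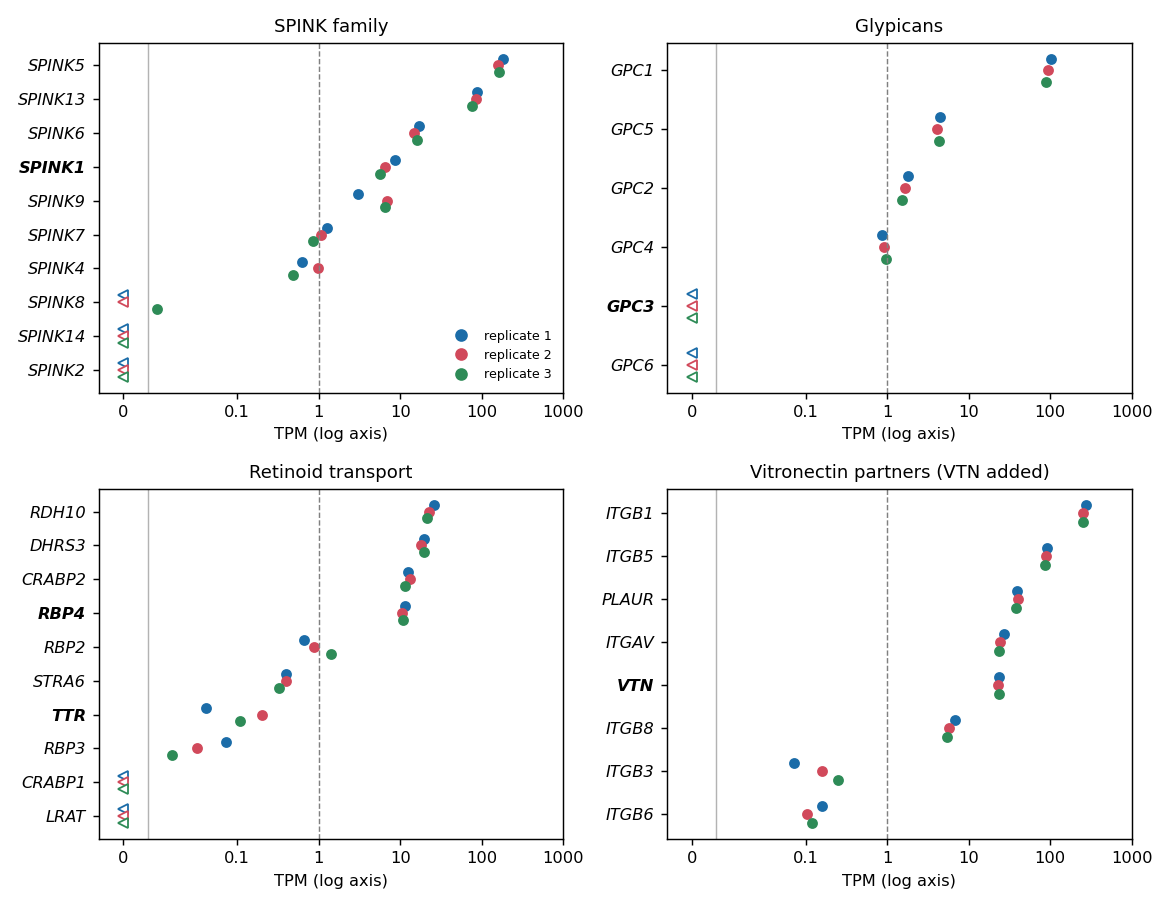
TPM in each library (log axis, dashed line at 1 TPM, open triangles for libraries listed at 0) for the SPINK family, the glypicans, the retinoid transport list and the vitronectin partners, with the genes described here in bold. SPINK1 lies below SPINK5, SPINK13 and SPINK6, GPC3 is at 0 while GPC1 is near 100 TPM (mean 95.6), RBP4 lies beside CRABP2, and VTN lies beside ITGAV.

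Genes of the secretory route and housekeeping genes were transcribed in the same libraries. Among protein-coding rows 59.5% reached 1 TPM in every library and 19.8% were listed at 0 throughout. All 14 listed genes for entry into the endoplasmic reticulum and folding there reached 1 TPM in every library, with a median of 423 TPM, and all 13 housekeeping genes did, with a median of 377 TPM. In contrast, 12 of 22 other plasma protein genes were listed at 0 throughout and 1 reached 1 TPM in every library. The one was C3, which encodes a complement component made in many tissues, with 12.9, 13.1 and 12.2 TPM.

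Markers of other cell types were given for comparison, beside the 59.5% of protein-coding rows that reached 1 TPM in every library. Of 8 epithelial genes 3 reached 1 TPM in every library. The summed level of the 8, from 4573 to 4831 TPM, lay almost wholly in KRT8 and KRT18. CLDN4, the other gene that reached the limit, had 57.1 ± 1.55 TPM (SD, n = 3). CDH1 lay around the limit with 1.04, 0.980 and 1.05 TPM, while ESRP1 was at 0 throughout and EPCAM had 0, 0 and 0.0901 TPM. Of 9 mesenchymal genes 4 reached 1 TPM in every library, with a sum from 697 to 788 TPM. The sum was led by VIM with 694 ± 48.1 TPM (SD, n = 3), and SPARC was at 0. Of 3 bile duct genes 2 did, with a sum from 549 to 562 TPM, nearly all from KRT7 with 544 ± 5.71 TPM (SD, n = 3), while CFTR had 0.0357, 0 and 0 TPM. Of 5 endothelial genes 1 did, with a sum from 1.47 to 1.88 TPM and KDR at 0. Blood cell genes did in 0 of 5, with a sum from 1.21 to 1.48 TPM and PTPRC, CD3E and LYZ at 0. The part of other cell types in the low liver genes was not tested.

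**Figure D4:**
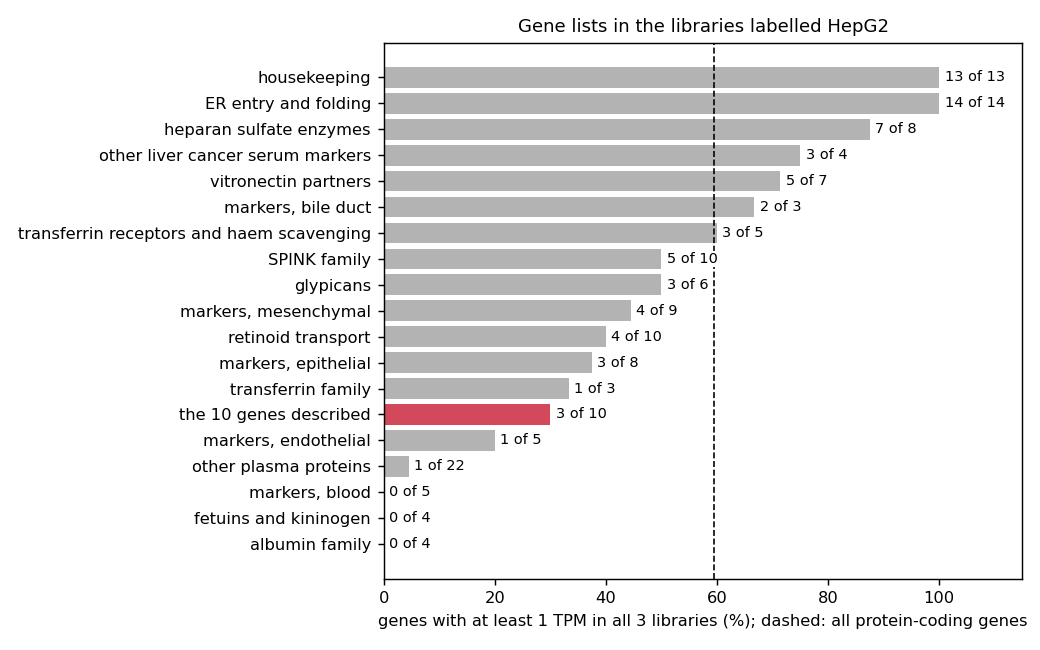
Share of each list's genes with at least 1 TPM in all 3 libraries (%, horizontal axis), with the counts beside the bars and a dashed line at 59.5%, the share of all protein-coding rows. The 10 genes described (red, 3 of 10) and the other plasma proteins (1 of 22) lie to the left of the line, and the housekeeping and endoplasmic reticulum lists reach all of their genes.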

How the data were processed

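RNA was measured in 3 libraries labelled as WT HepG2, grouped by sample title. Paired-end reads of 150 bp were filtered by the authors (FastQC 0.11.8, Trim Galore 0.6.2) and mapped to GRCh38 (STAR 2.6.1a). StringTie is also named in the submitters' processing notes, without a role, and the annotation and strand setting are not given in the sources used here. TPM was deposited with a fixed total per library. FPKM, also deposited, is proportional to TPM within a library. Coverage was deposited as mean depth, with no scaling for library size.

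Rows were joined by gene and coordinates (43389 rows), and 39320 on whole-chromosome references were used. No gene of the set had a row on another reference. Biotypes came from RefSeq by symbol (35978 rows matched, 19323 protein-coding) and transcripts from GENCODE v44. The rule for the 10 genes is a list of names that refers to no measured value, but this list, the other lists and the alternatives were chosen with earlier results of these data known, and the search for lengths that give whole bases was added after the values were seen. A gene's length was taken from the annotated transcript with the row's ends (VTN, ALB), from the main annotated transcript (GPC3, AHSG), or as the smallest length, from that of the shortest annotated coding transcript up to 6000 nt, that gave whole bases in every library. HP gave no whole bases at its annotated length and TF was not tried. TPM was called at 1 in all 3 libraries. Ratios used a pseudocount of 1 and an exact sign-flip permutation test. The procedures were run on simulated data: 200 of 200 raised genes were called among 39320 rows, and 199 of 200 lengths were recovered. The raised genes were set well above 1 TPM, so their calling was fixed in advance and checks the code only. The simulated lengths had 3 libraries with far more bases than TTR or AFP, so the lengths of these 2 genes were not tested. By rule the text names the 10 genes, up to 3 of the highest of each list, the genes at 0 where 5 or fewer are counted, and family members. Genes beside the 10 on the chromosome, low genes of the lists (such as STRA6, ITGB3, HPX, SULF1, AMBP, FGA), further vitronectin partners, the ratios to SPINK1 and the promoter search were chosen after values were seen. Some genes of the lists are not reported here and were left out of their counts. Alternatives were other units, limits, scalings, gene sets and the omission of each replicate. The calculations used Python 3.11.15, numpy 2.4.6, pandas 2.3.3, scipy 1.17.1 and matplotlib 3.10.9.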

Additional observations from a re-analysis of the deposited data

How the results depend on the processing

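No paired analysis was possible because all 3 libraries belong to 1 condition. Of 110 alternative values 85 stayed within the spread between libraries, within 1.5 times for counts or, for the tested log2 ratio, on the same side of 0 and of the threshold. Another 25 moved further and 0 reversed. Part of the 85 could not have moved. ALB, GPC3 and AHSG are at 0 in every library, and no gene of the set had a row on another reference. For VTN, RBP4 and SPINK1, the level of 23.3, 11.0 and 6.90 TPM became 11.1, 5.24 and 3.29 as FPKM, 139, 53.3 and 40.2 as coverage, and 29.2, 13.8 and 8.64 TPM without mitochondrially encoded genes, and these are changes of unit or scale that kept the order. Leaving out each replicate gave means that ranged from 23.1 to 23.6 TPM for VTN, from 10.7 to 11.2 TPM for RBP4 and from 6.09 to 7.55 TPM for SPINK1. Genes below 0.1 TPM in all 3 libraries numbered 6, against 3 listed at 0, and 3 to 4 were listed at 0 with a replicate left out, the fourth being HP without replicate 1. The number with at least 1 TPM stayed 3 with any replicate left out, and was 2 with a minimum of 10 TPM.

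The percentiles of VTN, RBP4 and SPINK1 were 60.7, 41.2 and 30.9, and became 71.1, 56.8 and 49.2 with a minimum mean of 0.1 TPM, 86.3, 79.4 and 75.8 with no minimum, 55.2, 33.9 and 23.4 among protein-coding genes and 71.2, 50.2 and 44.2 by coverage. Leave-one-out percentiles lay from 60.4 to 61.0 for VTN, from 41.0 to 41.4 for RBP4 and from 28.6 to 32.5 for SPINK1. The log2 ratio of VTN to RBP4, 1.02 ± 0.04 (SD, n = 3), ranged from 1.00 to 1.04 under the same omissions. It was 1.08 with a pseudocount of 0.1, 0.96 by FPKM and 1.37 by coverage, which lie outside that SD but keep the direction. Among the 7 low genes, the highest mean under any alternative other than coverage was 0.156 TPM, for TTR. Depth limits the genes listed at 0 as given by the read pair limits, which rest on lengths from the annotation, and a read lost before the quantification would not be seen.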

Other observations

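Of 4 further proteins that are used as blood markers of liver cancer, 3 had at least 1 TPM in every library. The share among protein-coding rows was 59.5%. GOLM1, which encodes a Golgi membrane protein, had 158, 151 and 152 TPM. DKK1, a secreted inhibitor of Wnt signalling, had 39.3, 35.2 and 33.6 TPM, and MDK, the growth factor midkine, had 2.06, 1.79 and 1.99 TPM. SPP1, which encodes osteopontin, had 0.152, 0.281 and 0.0805 TPM. AFP and GPC3 were thus low in libraries in which GOLM1 and DKK1 were transcribed.

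The most abundant genes of the endoplasmic reticulum list were CALR with 788 ± 9.79 TPM, SEC61G with 625 ± 60.1 TPM and HSPA5 with 606 ± 22.2 TPM (SD, n = 3), which encode a chaperone that binds calcium, a part of the entry channel and another chaperone. Plasma proteins use this route in hepatocytes, and VTN, the highest of the genes described, had 23.3 TPM. Most of the other plasma protein genes with a value above 0 had under 1 TPM, among them AMBP with 0.326 ± 0.133 and A1BG with 0.211 ± 0.103 TPM (SD, n = 3). The genes for the fibrinogen chains, FGA, FGB and FGG, were listed at 0 in all 3 libraries.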
